A study of Mus musculus with 12 samples.

Results

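The podocyte genes followed here in mouse kidney after ischemia were Nphs1, Podxl, Wt1, Synpo, Cdkn1c, Ptpro, Magi2 and Tcf21. They were chosen by symbol, as known genes of the slit diaphragm, the cytoskeleton and the transcription factors of podocytes, and were 8 of the 56748 genes measured. All 8 reached the mean of at least 1 FPKM that 12868 genes reached and that was needed for testing. FPKM are fragments scaled to the length of the gene model and to a library size, which here was not the plain read total. Podocytes are the epithelial cells of the glomerulus. Their interdigitating foot processes are joined by the slit diaphragm, a junction built around nephrin that holds back plasma protein, and an actin skeleton keeps the processes in shape. Podocytes scarcely divide, and their identity is maintained by transcription factors such as Wt1 and Tcf21.

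The study sequenced kidney RNA, with 12 libraries in 4 groups of 3 that crossed 2 genotypes with 2 operations. The mice were male, aged 8 to 12 weeks and anesthetized with pentobarbital at 50 mg/kg. In ischemia/reperfusion (IR), the pedicles of both kidneys were closed for 30 min and tissue was collected 24 h after reopening, whereas sham mice had the operation with no clamp. Wild-type (WT) mice were compared with mice in which Krt20, a keratin, had been knocked out in proximal tubular cells (cKO). Podocytes were therefore not the labelled target of the knockout. Which promoter drove the deletion and which alleles the WT mice carried is not stated in the labels. No label states that libraries of 1 group came from different animals, and p-values therefore measure only the spread between the libraries.

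Each library held 13187531 to 15962303 reads, recovered from the FPKM and the gene lengths. Krt20 averaged 0.0650 ± 0.0816 FPKM in the WT sham libraries and 0.0114 ± 0.0198 in the cKO sham libraries, and after IR 69.6 ± 12.7 FPKM in WT and 36.9 ± 9.47 in cKO (SD, n = 3 per group). Krt20 RNA thus rose with IR in cKO as well. All cKO IR libraries were below all WT IR libraries, but the difference of −0.91 in log2(FPKM + 1) did not pass (limma adjusted p = 0.132). The extraction text names retina, but the tissue field gives kidney. The 5 neuron and retina markers summed to 0.128 to 0.622 FPKM per library, with Crx at 0 in all 12, while 10 proximal tubule markers summed to 602 to 4681 FPKM. The library WT IR 2 lay at 9.84 on the first principal component, between sham libraries (−39.2 to −36.7) and the other WT IR libraries (34.9 and 42.1).

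Transcripts of all 8 podocyte genes were present in each of the 12 libraries. Their summed level was 71.5 to 88.4 FPKM with sham and 62.7 to 90.2 FPKM with IR in WT, and 80.7 to 99.8 FPKM with sham and 70.4 to 89.4 FPKM with IR in cKO, and they took 0.0358% to 0.0587% of the reads of a library. Podxl, at 34.3 to 58.9 FPKM, was above each of the other 7 in every library. FPKM is a level per gene length, so levels can be set side by side. Wt1 (1.49 to 2.46 FPKM) and Magi2 (0.837 to 1.83 FPKM) were the least abundant, with Magi2 below Wt1 in all 12 libraries.

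After IR, the slit diaphragm genes Nphs1 and Magi2 and the transcription factor Tcf21 were lower than in sham in both genotypes, and none of the 8 genes was called higher. In WT, 2 of the 8 genes fell (Tcf21 and Nphs1), where 19.5% of all tested genes fell and 42.2% were called in either direction. Without WT IR 2 the same 2 genes were called in WT, Nphs1 at −0.42 and Tcf21 at −0.62 (limma adjusted p = 0.0344 and 0.0172). In cKO, 3 of the 8 fell (Tcf21, Nphs1 and Magi2), where 23.1% of all tested genes fell and 50.8% were called. Calls required a limma p-value under 0.05 after Benjamini-Hochberg adjustment across the 12868 genes tested. The median log2 difference of the 8 genes was −0.10 in WT and −0.24 in cKO, against 0.01 and 0.02 over all tested genes. In each genotype 3 of the 8 (Nphs1, Magi2 and Tcf21) were lower without overlap between the groups, against 24.9% of all tested genes in WT and 27.8% in cKO. These shares are near the background and are no result about the list as a whole. Whether fewer podocytes or less RNA per podocyte lay behind a lower value cannot be told apart in RNA of whole tissue.

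**Figure D1:**
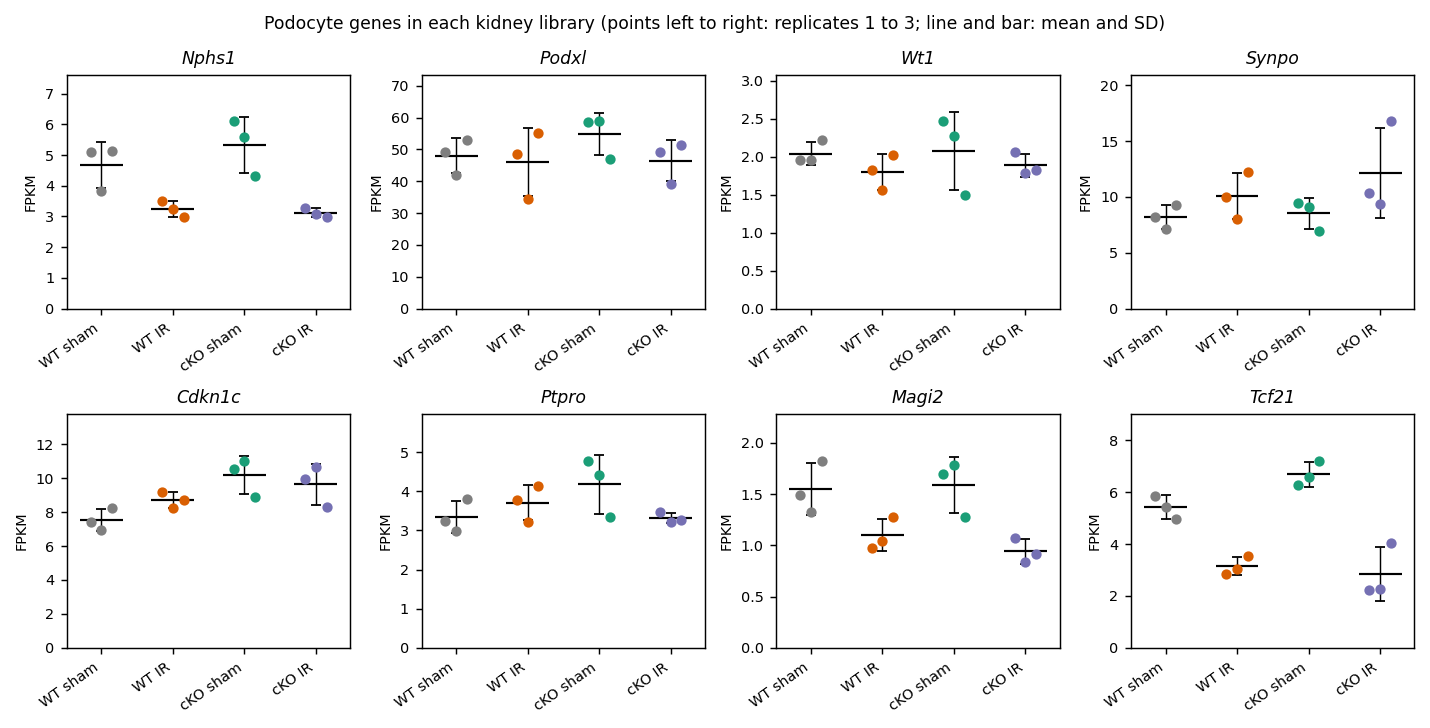
FPKM (vertical axes, each from 0) of the 8 podocyte genes in the 3 libraries of each group (points), with the mean as a line and the SD as a bar. For Nphs1, Magi2 and Tcf21 every IR library lies below the lowest sham library of its genotype, while Podxl, Wt1, Synpo, Cdkn1c and Ptpro overlap between IR and sham.

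Promoter sequence was given by RefSeq (build GRCm38.p6) for 4 of the 8 genes, as windows from 250 bases before to 50 bases after a transcription start. The 250 bases before the start are shown for the 3 genes that were low after IR and for Ptpro, a gene of the same cells that was not, so that they can be compared. They are written 5′ to 3′ on the strand of the gene, with capitals for any match to the 4 motifs searched. The windows lie at chr7:30459808-30460057 (Nphs1, plus strand), chr10:22820144-22820393 (Tcf21, minus strand), chr5:19226796-19227045 (Magi2, plus strand, the first of 2 starts) and chr6:137252049-137252298 (Ptpro, plus strand).
Nphs1: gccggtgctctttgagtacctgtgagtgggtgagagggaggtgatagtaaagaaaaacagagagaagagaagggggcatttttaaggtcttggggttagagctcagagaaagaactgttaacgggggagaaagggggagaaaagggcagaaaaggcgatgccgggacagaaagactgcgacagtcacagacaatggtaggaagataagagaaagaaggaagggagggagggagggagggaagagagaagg
Tcf21: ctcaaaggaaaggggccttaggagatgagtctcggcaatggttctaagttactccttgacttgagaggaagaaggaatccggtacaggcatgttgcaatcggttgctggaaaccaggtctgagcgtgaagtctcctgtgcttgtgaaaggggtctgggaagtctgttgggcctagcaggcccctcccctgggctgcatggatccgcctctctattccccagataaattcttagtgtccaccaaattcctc
Magi2: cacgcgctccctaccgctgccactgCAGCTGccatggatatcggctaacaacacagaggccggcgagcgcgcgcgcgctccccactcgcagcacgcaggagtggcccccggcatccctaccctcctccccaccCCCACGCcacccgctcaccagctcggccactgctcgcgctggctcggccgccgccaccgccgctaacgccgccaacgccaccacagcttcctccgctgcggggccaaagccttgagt
Ptpro: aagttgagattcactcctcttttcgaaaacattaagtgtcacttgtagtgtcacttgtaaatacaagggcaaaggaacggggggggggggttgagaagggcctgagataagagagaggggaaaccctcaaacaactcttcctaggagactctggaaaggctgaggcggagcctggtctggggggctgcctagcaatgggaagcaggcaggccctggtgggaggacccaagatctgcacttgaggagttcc
The motifs, searched on both strands of the 300-base windows, were GCGTGGG (the core bound by WT1 and EGR factors), CAGCTG (an E-box of the kind bound by TCF21), TAATTA (a homeodomain site) and GGGCGG (the GC box). Magi2 held CAGCTG, starting at position −225 from the transcription start, and GCGTGGG on the opposite strand at −117, where it reads CCCACGC. The window of the second Magi2 start (chr5:19907268-19907567) held TAATTA at −227 and GGGCGG on the opposite strand at −28. No match was found in the windows of Nphs1, Tcf21 and Ptpro. Of all 32851 windows of this kind, 16.3% held CAGCTG, 5.04% GCGTGGG, 5.29% TAATTA and 35.7% GGGCGG. By this search, the 3 genes that were low after IR shared no motif of this set. The GC content was 69.3% in the Magi2 window, 54.7% in that of Ptpro, 53.3% in that of Tcf21 and 49.7% in that of Nphs1.

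Nphs1 encodes nephrin, the adhesion protein that spans the slit between neighbouring foot processes (ENSMUSG00000006649, chromosome 7, 30157740 to 30186648, plus strand, coordinates as deposited, with no build named). Its level was 5.10, 3.83 and 5.13 FPKM in the WT sham libraries and 3.49, 3.23 and 2.99 FPKM in WT IR. It was 6.10, 5.59 and 4.31 FPKM in cKO sham and 3.27, 3.08 and 2.98 FPKM in cKO IR. Every IR library was below every sham library, and the IR libraries of the genotypes lay on top of each other. Nphs1 fell by 0.42 on the log2(FPKM + 1) scale in WT (SE 0.12, limma adjusted p = 0.0184), a ratio of mean FPKM of 0.691. It fell by 0.61 in cKO (SE 0.12, limma adjusted p = 0.00183), to 0.584 of the sham mean. The WT call was lost without WT sham 1, WT sham 3 or WT IR 3 (limma adjusted p = 0.0679, 0.0704 and 0.0617) and when FPKM were rescaled to plain read totals (−0.30, limma adjusted p = 0.0656). The cKO call was kept in every alternative in which the gene was tested. Nphs1 rested on 294 to 611 reads a library, and the pseudogene Rps12-ps4 lies within it on the opposite strand with 6 to 40 reads. Whether reads were counted by strand is not stated in the labels.

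Magi2, a scaffold protein that binds nephrin and sits under the slit diaphragm (ENSMUSG00000040003, chromosome 5, 19432034 to 20909790, plus strand), was the least abundant of the 8. It stood at 1.49, 1.32 and 1.83 FPKM in WT sham and at 0.979, 1.05 and 1.28 FPKM in WT IR. In cKO it stood at 1.70, 1.79 and 1.28 FPKM in sham and at 1.08, 0.837 and 0.913 FPKM in IR. The groups did not overlap in either genotype, but the highest WT IR library was just below the lowest WT sham library. Magi2 fell in cKO, by 0.41 on the log2 scale (SE 0.12, limma adjusted p = 0.0143, ratio of means 0.592), a call lost without cKO sham 1 or cKO sham 2 (limma adjusted p = 0.0513 and 0.0586). In WT its log2 difference of −0.28 did not pass (SE 0.12, limma adjusted p = 0.0861). With limma voom on the recovered reads, which does not add 1 FPKM to low values, the WT difference was −0.49 and passed (adjusted p = 0.0431). That was the 1 of 7 alternative settings in which it passed, with limma adjusted p up to 0.237 in the others. On leaving out 1 library, 0 of 6 fits called it (limma adjusted p = 0.0739 to 0.268).

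Ptpro encodes a receptor tyrosine phosphatase of the foot process membrane (ENSMUSG00000030223, chromosome 6, 137229317 to 137440231, plus strand). Its level was 3.24, 2.99 and 3.80 FPKM in WT sham and 3.79, 3.23 and 4.13 FPKM in WT IR. In cKO it was 4.79, 4.41 and 3.34 FPKM in sham and 3.47, 3.21 and 3.27 FPKM in IR. The WT groups overlapped throughout, and in cKO the sham library 3 lay among the IR libraries while the other sham libraries lay above them. The log2 difference was 0.12 in WT (95% interval −0.14 to 0.38, limma adjusted p = 0.45) and −0.25 in cKO (−0.51 to 0.01, limma adjusted p = 0.1). Without cKO sham 3 the cKO difference was −0.37 and passed (limma adjusted p = 0.0188). Ptpro had the smallest p among the 8 for a genotype-dependent effect of IR (the interaction), at −0.37 (SE 0.17, unadjusted p = 0.0504, limma adjusted p = 0.343).

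Tcf21, a helix-loop-helix transcription factor of podocytes that interstitial stromal cells of the kidney also express (ENSMUSG00000045680, chromosome 10, 22693180 to 22696073, minus strand), had the largest differences of the 8 between IR and sham. It stood at 5.86, 5.42 and 4.94 FPKM in WT sham and at 2.85, 3.03 and 3.53 FPKM in WT IR. In cKO it stood at 6.27, 6.59 and 7.21 FPKM in sham and at 2.21, 2.28 and 4.02 FPKM in IR. Sham and IR were well apart in both genotypes, and cKO IR 3 was higher than the other IR libraries. Tcf21 fell by 0.63 in WT (SE 0.15, limma adjusted p = 0.00742, ratio of means 0.580) and by 1.03 in cKO (SE 0.15, limma adjusted p = 0.000304, ratio 0.424). Both calls were kept in every alternative in which the gene was tested. The 5 stromal markers summed to 139 FPKM in cKO IR 3 against 17.0 and 30.0 in the other cKO IR libraries, and to 108 FPKM in WT IR 3 against 43.5 and 26.4. Of these, Dcn, a matrix proteoglycan of fibroblasts, fell by 1.21 in WT and by 2.04 in cKO (limma adjusted p = 0.0202 and 0.000866). The collagen genes Col1a1 and Col3a1 had differences of the opposite sign. Col1a1 rose by 2.04 in WT (limma adjusted p = 0.0241), with 0.89 in cKO (limma adjusted p = 0.262). Col3a1 differed by 1.49 in WT (limma adjusted p = 0.106) and 0.57 in cKO (limma adjusted p = 0.51). Over the 4 stromal markers tested, the median change with IR came to 0.50 for WT libraries and 0.11 for cKO libraries. These medians place the remaining tested marker on the falling side with Dcn in both genotypes. The part of stromal cells in the Tcf21 values was not tested.

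Wt1, a zinc-finger factor of podocytes (ENSMUSG00000016458, chromosome 2, 104956874 to 105003961, plus strand), was not called in either genotype. Its level was 1.95, 1.96 and 2.22 FPKM in WT sham and 1.82, 1.55 and 2.02 FPKM in WT IR. In cKO it was 2.46, 2.27 and 1.49 FPKM in sham and 2.06, 1.78 and 1.82 FPKM in IR. The groups overlapped in both genotypes. The log2 difference was −0.12 in WT (95% interval −0.40 to 0.16, limma adjusted p = 0.464) and −0.08 in cKO (−0.35 to 0.20, limma adjusted p = 0.629). These intervals leave room for a moderate change in either direction. With 135 to 231 reads a library, counting error alone gave a coefficient of variation of 7.25% to 7.60%, against 7.47% to 24.7% observed within groups.

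Podxl encodes podocalyxin, the charged sialomucin of the podocyte surface that vascular endothelium also carries (ENSMUSG00000025608, chromosome 6, 31496423 to 31540916, minus strand). It had the most reads of the 8, 2780 to 4860 a library. Its level was 49.3, 42.0 and 52.9 FPKM in WT sham and 48.5, 34.3 and 55.3 FPKM in WT IR. In cKO it was 58.5, 58.9 and 47.2 FPKM in sham and 49.1, 39.2 and 51.3 FPKM in IR. The groups overlapped, and WT IR 2 had the lowest value of all 12 libraries. The log2 difference was −0.08 in WT (95% interval −0.47 to 0.31, limma adjusted p = 0.739) and −0.23 in cKO (−0.62 to 0.15, limma adjusted p = 0.289). The 9 glomerular endothelium markers were likewise lowest in WT IR 2, at a sum of 39.4 FPKM, against 66.3 and 102 FPKM in the other WT IR libraries. The part of endothelial RNA in the Podxl values was not tested.

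Synpo encodes synaptopodin, an actin-binding protein of foot processes (ENSMUSG00000043079). Its level was 8.16, 7.12 and 9.26 FPKM in WT sham and 9.99, 8.06 and 12.2 FPKM in WT IR. In cKO it was 9.46, 9.12 and 6.96 FPKM in sham and 10.3, 9.38 and 16.8 FPKM in IR. In each genotype 2 of the 3 IR libraries were above all sham libraries, but the groups overlapped, and cKO IR 3 was far above the rest. The log2 difference was 0.26 in WT (SE 0.21, limma adjusted p = 0.335) and 0.44 in cKO (SE 0.21, limma adjusted p = 0.103), where it was 0.20 without cKO IR 3.

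Cdkn1c encodes p57, an inhibitor of cyclin-dependent kinases found in mature podocytes (ENSMUSG00000037664, chromosome 7, 143012076 to 143014787, minus strand). Its level was 7.41, 6.92 and 8.25 FPKM in WT sham and 9.17, 8.24 and 8.68 FPKM in WT IR. In cKO it was 10.6, 11.03 and 8.92 FPKM in sham and 9.94, 10.6 and 8.32 FPKM in IR. Within each genotype, sham and IR overlapped, in WT only because WT IR 2 lay marginally below WT sham 3. The log2 difference was 0.19 in WT (SE 0.10, limma adjusted p = 0.172) and −0.07 in cKO (SE 0.10, limma adjusted p = 0.588). Scaling to plain read totals, which moved the WT median of all tested genes from 0.01 to 0.13, raised the WT difference to 0.33 (limma adjusted p = 0.0234).

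**Figure D2:**
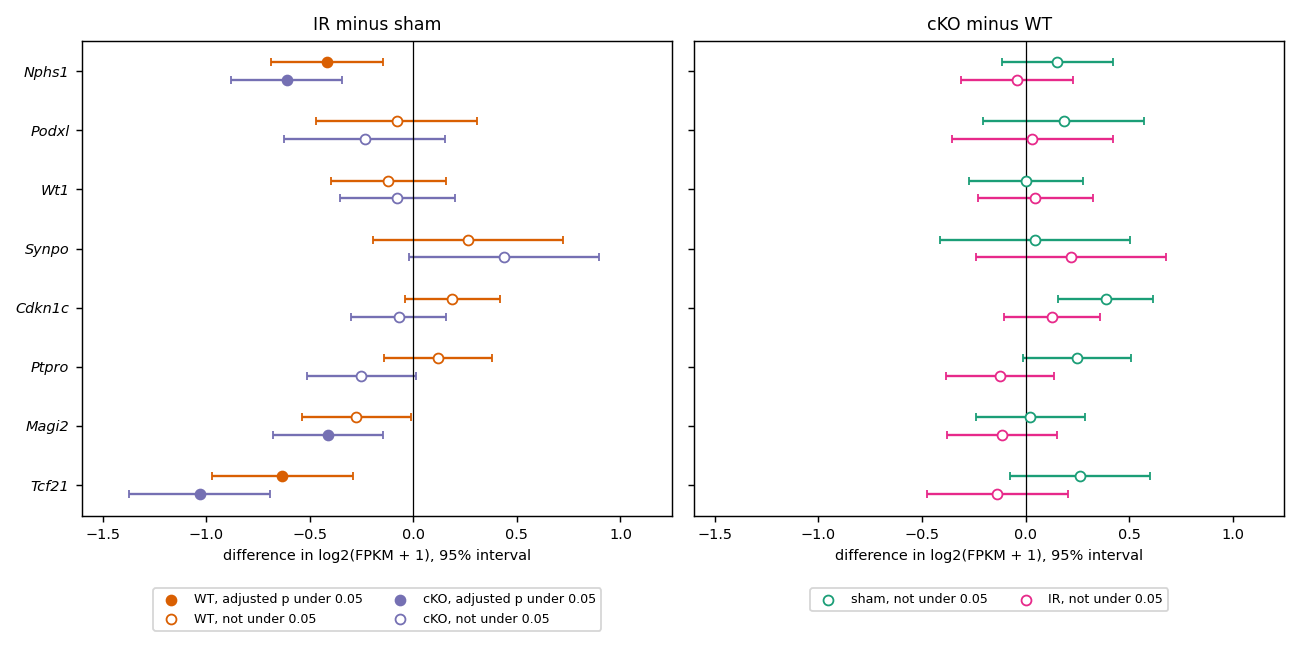
Differences in log2(FPKM + 1) with 95% intervals (horizontal axes) for the 8 podocyte genes, as IR minus sham within each genotype (left) and as cKO minus WT within each operation (right). Filled points have a limma adjusted p under 0.05: Tcf21 and Nphs1 in both genotypes and Magi2 in cKO, and none between the genotypes.

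Between the genotypes, none of the 8 genes was called, either in sham or after IR. In cKO sham against WT sham, 1.10% of all tested genes were called, and of the 8 genes Cdkn1c alone had an unadjusted p under 0.05. Cdkn1c averaged 10.2 ± 1.11 FPKM in cKO sham and 7.53 ± 0.670 FPKM in WT sham (SD, n = 3 each). All 3 cKO sham libraries were above all 3 WT sham libraries, with a log2 difference of 0.39 (SE 0.10, unadjusted p = 0.00357) that did not pass the adjustment over all genes (limma adjusted p = 0.137). Tcf21 also did not overlap, at 6.69 ± 0.479 FPKM in cKO sham against 5.41 ± 0.460 in WT sham (log2 difference 0.26, limma adjusted p = 0.605). Having 2 of 8 genes higher without overlap compares with 13.0% of all tested genes. The other 6 differed by 0.00 (Wt1) to 0.25 (Ptpro), with limma adjusted p of 0.477 to 0.997, and the median of the 8 was 0.17 against 0 over all tested genes.

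After IR, none of these genes was called between the genotypes. In cKO IR against WT IR, 0% of all tested genes were called by limma, although 1925 had an unadjusted p under 0.05. None of the 8 genes had an unadjusted p under 0.05, and each overlapped between the groups, where 16.0% of all tested genes did not. Their log2 differences ran from −0.14 for Tcf21 (95% interval −0.48 to 0.20) to 0.22 for Synpo (−0.24 to 0.68), with a median of −0.00, and the interval for Nphs1 was −0.31 to 0.23. The interaction of genotype and IR was called for 0.878% of all tested genes and for none of the 8, none of which had an unadjusted p under 0.05. It was −0.40 for Tcf21 (95% interval −0.88 to 0.08, limma adjusted p = 0.433) and −0.20 for Nphs1 (−0.58 to 0.19, limma adjusted p = 0.655). Limma voom on the recovered reads likewise called none of the 8 in these 3 comparisons. Thus the size of the fall in Nphs1, Magi2 and Tcf21 was not shown to differ between cKO and WT.

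Because the 8 genes share a cell type, their ratios within a library were also set side by side. The pairs were chosen after the values had been seen, so the ratios are a description with no test. The ratio of Nphs1 to Ptpro was 1.28 to 1.575 in WT sham and 0.725 to 0.9997 in WT IR, and 1.27 to 1.29 in cKO sham and 0.911 to 0.961 in cKO IR. That of Magi2 to Ptpro was 0.443 to 0.481 and 0.259 to 0.324 in WT sham and IR, and 0.355 to 0.406 and 0.261 to 0.310 in cKO sham and IR. Nephrin and its scaffold were thus lower after IR relative to another foot process gene in every library, without overlap between the groups. The groups came nearest for Magi2 in cKO, at 0.355 in sham and 0.310 in IR. Ptpro itself differed after IR by 0.12 in WT and −0.25 in cKO, neither called. Tcf21 to Ptpro was 1.3 to 1.82 and 0.754 to 0.939 in WT sham and IR, and 1.31 to 2.16 and 0.637 to 1.23 in cKO. Against Wt1, the ratio of Nphs1 overlapped in WT (1.96 to 2.62 in sham, 1.48 to 2.08 in IR) but not in cKO (2.47 to 2.88 and 1.59 to 1.73).

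**Figure D3:**
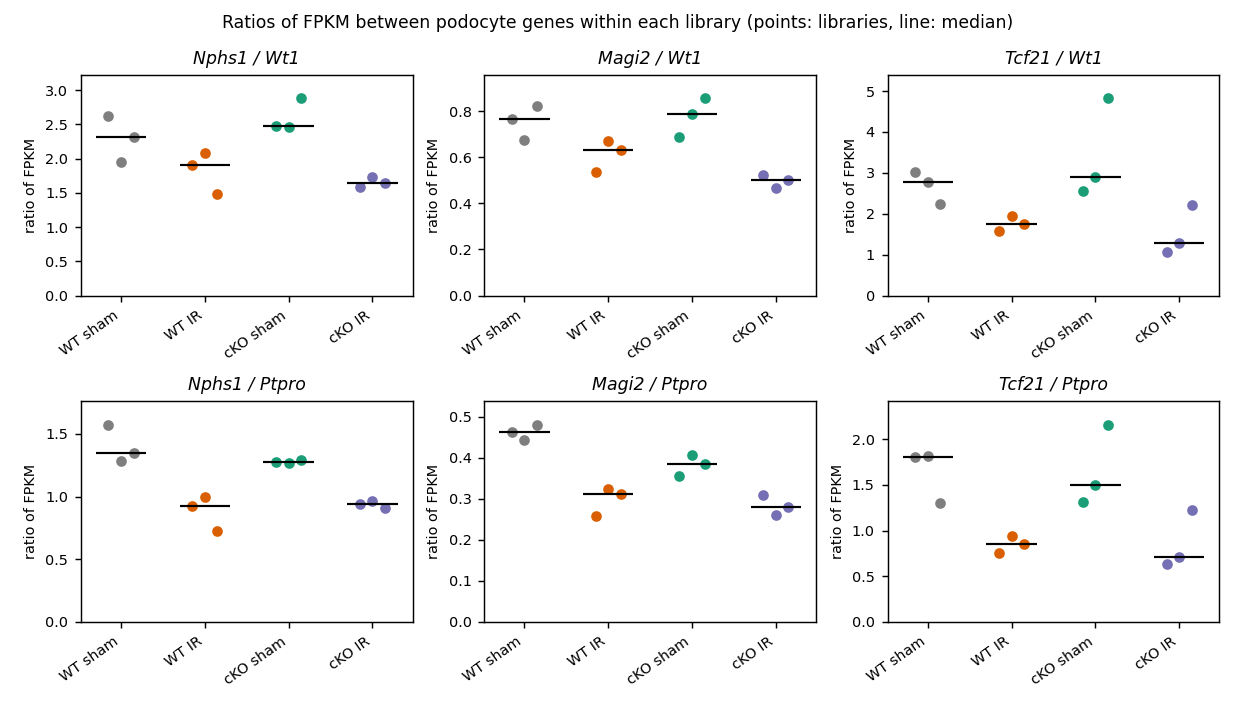
Ratios of FPKM within each library (vertical axes, from 0) of Nphs1, Magi2 and Tcf21 to Wt1 (top) and to Ptpro (bottom), with points for libraries and a line at the group median. Of the 6 ratios, all are lower after IR without overlap in both genotypes except Nphs1 to Wt1, whose WT sham and WT IR ranges overlap.

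The members that were not called also shifted relative to each other. Synpo to Podxl was 0.165 to 0.175 in WT sham and 0.206 to 0.235 in WT IR, and 0.148 to 0.162 in cKO sham and 0.210 to 0.327 in cKO IR. This ratio was higher in all 6 IR libraries than in all 6 sham libraries, although neither gene passed its own test. Wt1 to Ptpro was 0.583 to 0.655 in WT sham and 0.481 to 0.490 in WT IR, but 0.448 to 0.515 in cKO sham and 0.555 to 0.594 in cKO IR. It was thus lower after IR in WT and higher after IR in cKO, with no overlap in either.

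Libraries of 1 group differed in how much of the podocyte genes they held. All 8 genes were below their group mean in WT IR 2, and 7 of 8 were in WT sham 2, cKO sham 3 and cKO IR 2. In WT sham 3, cKO sham 1 and cKO sham 2, 7 of 8 were above. Over the 12 libraries, the deviations of log2(FPKM + 1) from the group means were correlated with a median Pearson r of 0.62 among the 28 pairs of genes, 22 of them above 0. The points share library and depth, so this is a description. The highest values were 0.95 for Wt1 with Ptpro, 0.86 for Ptpro with Magi2 and 0.82 for Podxl with Synpo. Tcf21 stood apart: of its 7 pairs, 2 were above 0 (median −0.20), against 20 of the other 21 pairs (median 0.66). Its r was −0.75 with Cdkn1c and 0.62 with Synpo. The largest deviation of Tcf21 was 0.42 in cKO IR 3, where Synpo deviated by 0.48 and Cdkn1c by −0.18. Correlations without this library were not computed.

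**Figure D4:**
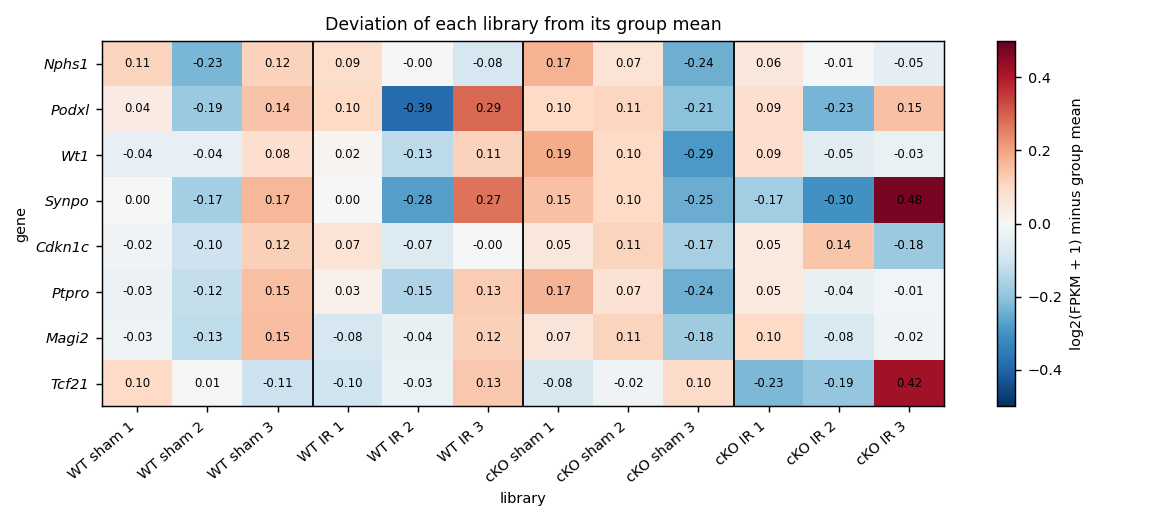
Deviation of log2(FPKM + 1) from the group mean (color scale, red above and blue below) for each of the 8 podocyte genes (rows) in each of the 12 libraries (columns). Whole columns tend to share a color, as in WT sham 2 and cKO sham 3, apart from Tcf21.

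Of the 11624 tested genes ranked, those whose deviations were most like those of Nphs1 were Exosc10 (r = 0.95), Pde6a (0.94), Kdm5d (0.92), F5 (0.91), Dnaaf9 (0.90) and Rbm26 (0.89), over 12 libraries. Among podocyte genes Ptpro came nearest, at rank 102 (r = 0.72), followed by Cdkn1c at 150 and Wt1 at 190. Tcf21 was at rank 10364 (r = −0.36).

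A further 59 genes known from podocytes were listed by role, of which 50 were tested. After IR, 16 were called higher and 9 lower in WT, where 22.6% and 19.5% of all tested genes were, and 19 higher and 13 lower in cKO, where 27.8% and 23.1% were. Their median log2 differences were −0.05 in WT and 0.04 in cKO. Many of these genes are also active in tubule cells, which make up most of the tissue. The list moved in both directions, and the roles differed in which direction was called.

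Among genes of the slit diaphragm and its signalling, 5 of the 10 tested rose in each genotype and none fell. The adaptor Cd2ap, which links nephrin to actin and is also made in many epithelia, rose from 7.21 ± 0.370 to 16.5 ± 4.53 FPKM in WT (SD, n = 3; log2 difference 1.06, limma adjusted p = 0.000988). In cKO it rose from 7.54 ± 0.416 to 23.3 ± 3.79 FPKM (log2 difference 1.498, limma adjusted p = 7.35e-05). The giant cadherin Fat1 rose by 0.77 and 0.70, the tight junction protein Igsf5 by 0.87 and 0.96 and the polarity protein Pard6b by 0.57 and 0.51 in WT and cKO. Nphs1, which fell, thus moved opposite to the called genes of this role.

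Nck2, an adaptor that binds phosphorylated nephrin, was the 1 gene of the 50 whose response to IR was called as depending on genotype (interaction of 0.57, SE 0.10, limma adjusted p = 0.0333). Its level was 4.89, 5.11 and 5.74 FPKM in WT sham and 4.61, 4.26 and 4.87 FPKM in WT IR. It was 4.03, 4.20 and 4.48 FPKM in cKO sham and 5.84, 5.79 and 6.16 FPKM in cKO IR. The WT libraries were lower after IR and the cKO libraries higher, and the rise in cKO passed (log2 difference 0.40, limma adjusted p = 0.00102) while the WT difference of −0.16 did not (limma adjusted p = 0.0977). The interaction was lost with no filter on low genes (limma adjusted p = 0.0619), with plain read totals (0.0882) and on leaving out any of 10 of the 12 libraries (0.0515 to 0.102).

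Of the 14 foot process cytoskeleton genes tested, 7 rose and 1 fell in WT, and 8 rose and 2 fell in cKO. The myosin heavy chain Myh9 rose by 1.23 and 1.41, the membrane-actin linker Ezr by 0.62 and 0.75, the GTPase regulator Arhgdia by 0.77 and 1.002 and the actin crosslinker Palld by 1.07 and 0.62. Arhgap24, a Rac-directed GTPase activator of podocytes, fell by 0.60 and 0.78 (limma adjusted p = 0.00129 and 0.00016).

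Among 11 adhesion and basement membrane genes, 4 rose and 2 fell in WT, and 5 rose and 3 fell in cKO. The integrin subunit Itga3 rose by 0.83 and 1.28 and its tetraspanin partner Cd151 by 1.11 and 1.53. Col4a4, a chain of the type IV collagen of the glomerular basement membrane, was 37.0, 31.8 and 31.6 FPKM in WT sham and 14.99, 24.1 and 15.4 FPKM in WT IR. It was 33.2, 34.3 and 33.1 FPKM in cKO sham and 17.5, 13.4 and 12.9 FPKM in cKO IR. Sham and IR were far apart, and Col4a4 fell by 0.88 in WT and by 1.16 in cKO (limma adjusted p = 0.00207 and 0.000249). In cKO, the collagen chain Col4a5 fell by 0.67 and the laminin chain Lama5 rose by 0.64, while neither passed in WT (−0.17 and 0.11).

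Of the 5 transcription factors tested, 1 fell in each genotype and none rose. The factor that fell in cKO was Dach1, by 0.46 (limma adjusted p = 0.00372), with a log2 difference of −0.23 in WT (0.0962).

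Receptors, secreted and surface proteins made up the role in which falls were most frequent: 5 of 10 fell and 0 rose in WT, and 7 fell and 1 rose in cKO. Vegfa, the growth factor by which podocytes sustain the glomerular endothelium and which tubules also make, fell by 0.63 and 0.51 (limma adjusted p = 0.0141 and 0.0312). The cKO call was lost with no filter (limma adjusted p = 0.0667) and without cKO sham 1, cKO sham 2, cKO IR 2 or cKO IR 3 (0.0943, 0.0742, 0.0659 and 0.114), and the WT call without WT IR 3 (0.0522). The peptidase Mme fell by 1.37 and 1.67, from 20.1 ± 0.618 to 7.29 ± 1.86 FPKM in WT and from 21.0 ± 4.88 to 5.78 ± 0.700 FPKM in cKO (SD, n = 3 each). The peptidase Dpp4 fell by 0.49 and 1.07 and the receptor kinase Mertk by 0.65 and 0.84. The WT call of Dpp4 was lost with no filter (limma adjusted p = 0.0567) and without WT sham 2, WT sham 3, WT IR 1 or WT IR 3 (0.0758, 0.0681, 0.0761 and 0.0983). Mme and Dpp4 are also brush border enzymes of the proximal tubule, of whose 10 markers 9 fell in both genotypes, from a sum of 4094 to 4681 FPKM in WT sham to 889 to 2187 in WT IR, and from 3680 to 4472 to 602 to 960 in cKO. The part of tubule RNA in these values was not tested.

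**Figure D5:**
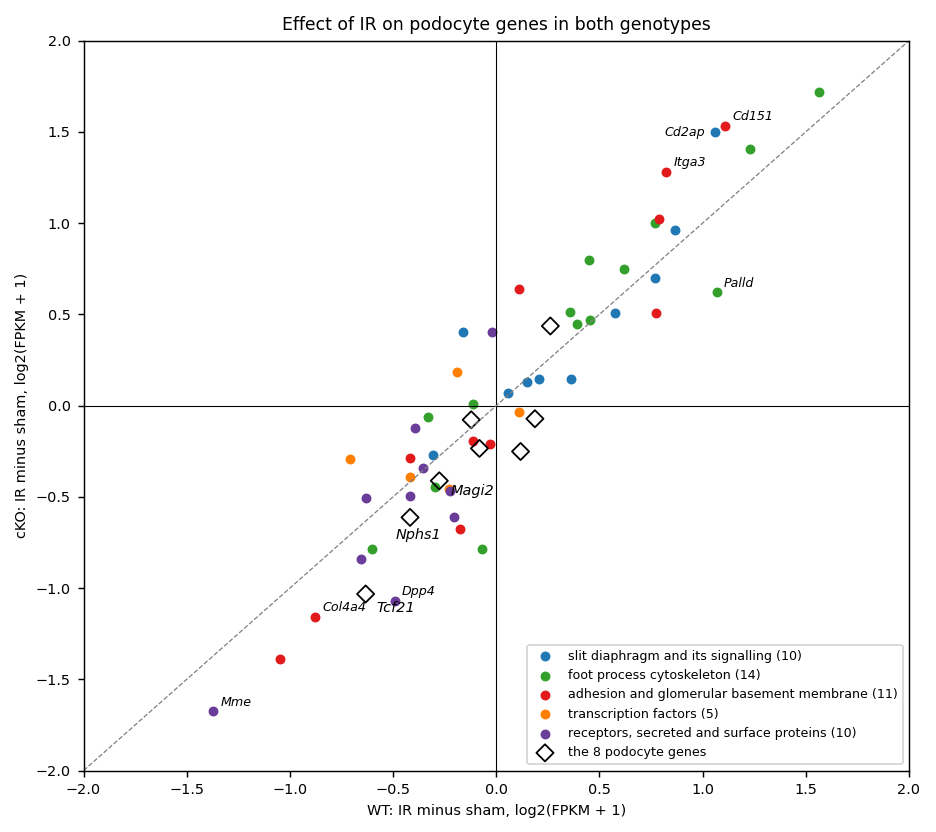
Differences in log2(FPKM + 1) between IR and sham in WT (horizontal axis) and in cKO (vertical axis) for the 50 other podocyte genes tested (dots, colored by role) and the 8 podocyte genes (diamonds), with a dashed line of equality. Nphs1, Magi2 and Tcf21 lie in the lower left with Col4a4 and Mme, and Cd2ap, Cd151 and Itga3 in the upper right.

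Between the genotypes, 0 of the 50 genes were called by limma or by limma voom, either in sham (6 with an unadjusted p under 0.05) or after IR (15). The 9 listed genes that did not reach the filter were Kirrel2, Kirrel3, Trpc6, Plce1, Anln, Lmx1b, Foxd1, Robo2 and Tdrd5. Robo2, a guidance receptor tied to the nephrin complex, averaged 0.935 ± 0.121 FPKM with sham and 0.427 ± 0.236 FPKM with IR in WT, and 1.24 ± 0.0401 FPKM with sham and 0.465 ± 0.138 FPKM with IR in cKO (SD, n = 3 each, not tested).

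Genes listed as markers of the neighbouring glomerular cells were measured in the same libraries of whole kidney. The part of cells outside the glomerulus in the values of these genes was not tested. Of 9 glomerular endothelium genes, 1 fell in WT, and 2 fell and 1 rose in cKO, with the VEGF receptor Kdr falling by 1.02 and 1.23. Kdr varied widely within the IR groups (5.59 ± 3.02 FPKM in WT and 5.32 ± 2.44 in cKO, SD, n = 3 each). The gene that rose in cKO was Plat, by 0.99 (limma adjusted p = 0.00445). In WT its difference of 0.56 did not pass (limma adjusted p = 0.0736). Of 8 mesangium and pericyte genes, 3 fell in each genotype, among them the integrin Itga8 (by 1.204 and 1.24) and the angiotensin receptor Agtr1a (by 0.70 and 0.82). Of 4 parietal epithelium genes tested, 3 rose in WT and 4 in cKO, and the tight junction gene Cldn1 rose by 1.59 and 2.35. Over all tested genes, 19.5% fell and 22.6% rose in WT, and 23.1% fell and 27.8% rose in cKO, so the endothelial counts are near the background. The sums per library were 70.3 to 91.0 FPKM in WT sham and 39.4 to 102 in WT IR for endothelium, and 86.9 to 96.7 and 50.6 to 86.8 for mesangium and pericytes. In cKO they were 86.7 to 93.9 in sham and 56.1 to 126 in IR for endothelium, and 96.1 to 113 and 55.5 to 131 for mesangium and pericytes. No marker of these 3 lists was at 0 in a whole group, and their part in the values of the podocyte genes was not tested.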

How the data were processed

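RNA of the kidney was measured in 12 libraries. The authors deposited 1 table of FPKM values with the length of each gene model. Alignment with HISAT2 2.2.1 and the builds mm8 and mm9 are named, per the submitters' processing notes. The sources used here do not give the counting program, annotation, filters or strand setting, and the table's coordinates carry no build name. Within a library, FPKM multiplied by length fell on multiples of a single value (distance from whole numbers at most 2.97e-09), so the reads behind each value could be recovered. The library size behind the FPKM was 0.933 to 0.990 of the recovered reads in sham libraries and 1.00 to 1.13 in IR libraries. The deposited scaling therefore sets IR values lower against sham than plain read totals do. Libraries were grouped by their titles.

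FPKM were transformed as log2(FPKM + 1), which understates the change of low genes. Genes averaging 1 FPKM or more were fitted in limma 3.58.1 (R 4.3.3) with 1 mean per group and variances moderated along a trend (8 residual and 2.59 prior degrees of freedom). There were 5 comparisons: IR against sham in each genotype, cKO against WT in each operation, and their interaction. All tests were two-sided, and Benjamini-Hochberg adjustment ran across the 12868 genes. The fit was tested on simulated data. Alternatives were a pseudocount of 0.1, no filter, a mean of at least 5 FPKM, plain read totals, median-of-ratios scaling, limma voom on the recovered reads, only the 2 groups compared, a block by replicate number and leaving out each library. For the other podocyte genes, all of these except the pseudocount and median-of-ratios scaling were chosen after seeing the data.

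The 8 genes and the lists were chosen with earlier results of these data known. The genes named are the 8, up to 5 called genes per role with the smallest adjusted p, up to 3 markers per cell type with the smallest adjusted p, the 6 genes most like Nphs1 (clone names left out), and Krt20. Some genes that this rule picks are not reported here. Crx and Robo2 were chosen after their values were seen. Of the marker lists not described in the report, 4 of 5 thick ascending limb and distal tubule genes fell in both genotypes, and 3 of 5 collecting duct genes fell in both while 1 rose in WT. Tubular injury genes rose in 6 of 6 in WT and 5 of 6 in cKO, and neutrophil genes in 3 and 4 of 4. In stroma 1 of 4 tested genes fell in each genotype and 1 rose in WT, 1 of 4 macrophage genes rose and 1 fell in both, and 3 of 3 red blood cell genes fell in WT and 0 in cKO. Of 7 podocyte markers on this list, 5 of them among the 8, 2 fell in WT and 1 in cKO. In sham, 1 tubular injury gene was higher in cKO and no other marker was called between the genotypes.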

Additional observations from a re-analysis of the deposited data

Results flagged for a closer look

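None of the 8 podocyte genes had a called interaction of genotype and IR, and 4 of the other podocyte genes are given here because their genotypes moved apart. For Nck2 the effect of IR was 0.57 higher in cKO than in WT on the log2 scale, which limma called (adjusted p = 0.0333), and all 3 cKO libraries were below all WT libraries in sham and above them after IR. For Lama5 each cKO library was below the WT mean in sham and above it after IR, although the sham groups overlapped, and the difference of 0.53 was not called (limma adjusted p = 0.0559). For Col4a5 all 3 cKO libraries were above all WT libraries in sham and below them after IR, and the difference of −0.50 was not called (limma adjusted p = 0.11). For Dpp4 each cKO library was above the WT mean in sham and below it after IR, although the IR groups overlapped, and the difference of −0.58 was not called (limma adjusted p = 0.257).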

How the results depend on the processing

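The falls of Tcf21 in both genotypes and of Nphs1 in cKO kept their call in every alternative in which they were tested. With a mean of at least 5 FPKM, 0 of the podocyte genes were called after IR in WT and 0 in cKO, since only Podxl, Synpo and Cdkn1c were then tested. Leaving out 1 library gave 1 to 2 called genes in WT and 2 to 4 in cKO. The replicate numbers did not pair the libraries (correlations of deviations −0.19 to 0.40, over 0.1 in 4 of 18 pairs), and with the replicate block 2 and 3 of the 8 were called, as without it, and 73 of all tested genes for the interaction against 113. The 1 other podocyte gene called for the interaction, Nck2, became 0 with no filter and with plain read totals, and 0 to 1 on leaving out a library. Among uncalled differences, plain read totals reversed Podxl after IR in WT (0.0704), Podxl in cKO IR against WT IR (−0.0192) and Wt1 for the interaction (−0.0186), and the difference of Wt1 between sham groups became −0.004 with a pseudocount of 0.1 and −0.0014 with voom. Leaving out 1 library also turned the sign of differences near 0, which ranged as follows. After IR in cKO, Cdkn1c ranged from −0.155 to 0.0205 and Wt1 from −0.221 to 0.0155, and in WT Podxl ranged from −0.225 to 0.112. In cKO IR against WT IR, Nphs1 ranged from −0.0835 to 0.0019, Podxl from −0.161 to 0.176, Synpo from −0.0158 to 0.372 and Wt1 from −0.0174 to 0.104. In cKO sham against WT sham, Magi2 ranged from −0.0418 to 0.111, Synpo from −0.0372 to 0.171 and Wt1 from −0.0897 to 0.147. For the interaction, Synpo ranged from −0.0635 to 0.325 and Wt1 from −0.0998 to 0.137. Over all tested genes, 251 were called in cKO sham against WT sham with only the 2 groups fitted, against 142, and 0 to 12 in cKO IR against WT IR on leaving out a library, or 9 with no filter. The cause of these changes was not tested. Read depth limits Tcf21 (83 to 247 reads a library), Wt1 (135 to 231) and Magi2 (147 to 295) most.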
